A study of Mus musculus with 6 samples.

Results

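A set of 8 genes that carry the signal from death receptors to apoptosis or necroptosis were followed in macrophages that lack the catalytic subunit of protein phosphatase 2A (PP2Ac). They were chosen by symbol as the RIP kinases Ripk1 and Ripk3, the pore-forming pseudokinase Mlkl, the adaptor Fadd, the initiator caspase Casp8, its inhibitor Cflar (cFLIP) and the ubiquitin ligases Birc2 (cIAP1) and Birc3 (cIAP2). All 8 of 8 were among the 55453 genes of the count table, and all passed the filter on low counts. When a receptor such as TNF receptor 1 is engaged, RIPK1 enters a membrane complex in which the cIAPs attach ubiquitin chains to it. If that brake fails, RIPK1, FADD and caspase-8 assemble in the cytosol, where cFLIP decides how far caspase-8 is activated, and active caspase-8 cleaves RIPK1 and RIPK3. Where caspase-8 is held back, RIPK3 phosphorylates MLKL, which breaks the plasma membrane, and macrophages can take this route after TNF, Toll-like receptor and interferon signals.

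RNA-Seq was performed on 6 libraries of bone marrow-derived macrophages (BMDM), grown from marrow of C57BL/6 mice of 6 to 10 weeks. The PP2Ac KO group had 3 libraries of the genotype LysMcre PP2Ac fl/fl, and the other 3 libraries were WT. Cre under the Lysozyme 2 promoter removes floxed exon 1 of Ppp2ca, the PP2Ac gene, in cells of the myeloid lineage. WT mice were bought from a supplier, and are not said to be littermates. The cells were grown in M-CSF or in medium conditioned by L929 fibroblasts. The cells were taken as treated with the STING agonist cGAMP at 10 ug/mL for 4 hours in both genotypes, since the study describes such RNA-Seq and the labels give no treatment. No untreated libraries were analysed here. Whether each library came from its own mouse is not given, so p-values measure the spread between these libraries.

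Totals ran from 35257156 to 47390899 counts. Ppp2ca had 33 to 47 counts in the KO libraries and 8279 to 10654 in the WT libraries, a log2 fold change of -7.67 (edgeR adjusted p = 3.17e-10). The 6 macrophage markers summed to 7290 to 7470 CPM (counts scaled by library size) in KO and 6160 to 6790 in WT. All 4 fibroblast markers were lower in KO (summed 22.7 to 33.4 against 74.9 to 118 CPM), as were all 4 proliferation markers (53.9 to 59.3 against 99.6 to 127 CPM). Mitochondrial transcripts took 1.12% to 1.24% of KO counts and 1.43% to 1.47% of WT counts. These differences lie along the same split as every result below, and their part in those results was not tested. Of the T and NK cell markers, Cd8a was at 0 in all libraries and 5 of 6 had at most 3 counts in each, and among 6 neutrophil markers Ly6g was at 0 and 3 had at most 3.

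Of the 8 genes, 5 rose in PP2Ac KO BMDM. Mlkl rose 2.35-fold, Cflar 2.0-fold, Birc3 1.89-fold, Casp8 1.73-fold and Birc2 1.56-fold, while Ripk1, Ripk3 and Fadd did not pass the test. Thus 5 of 8 were higher and 0 of 8 lower at an edgeR adjusted p under 0.05, where 18.1% of the 13680 genes tested were higher and 19.0% lower. Of the 3 genes not called, Ripk3 lay above 0 and Ripk1 and Fadd slightly below. The median log2 fold change was 0.715 over the 8 genes and -0.0241 over all genes tested. Together the 8 genes took 0.105% to 0.12% of the counts of a KO library and 0.0675% to 0.0829% of a WT library. In bulk RNA, fewer cells with a transcript and less of it per cell cannot be told apart.

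At the stricter thresholds of an adjusted p under 0.01 and a log2 fold change past 1 in either direction, 6.35% of all genes were called, and of the 8 genes Mlkl was called. Cflar lay on the threshold, so that the count was 2 under RLE scaling, with the replicate number as a block, in DESeq2 and in limma-voom. It was also 2 without KO replicate 2 or KO replicate 3, and 3 without WT replicate 1, where Birc3 crossed as well. The 3 KO and 3 WT libraries did not overlap for 6 of the 8 genes, 5 with KO above and 1, Fadd, with KO below. That share is read against 50.9% of all genes tested.

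**Figure D1:**
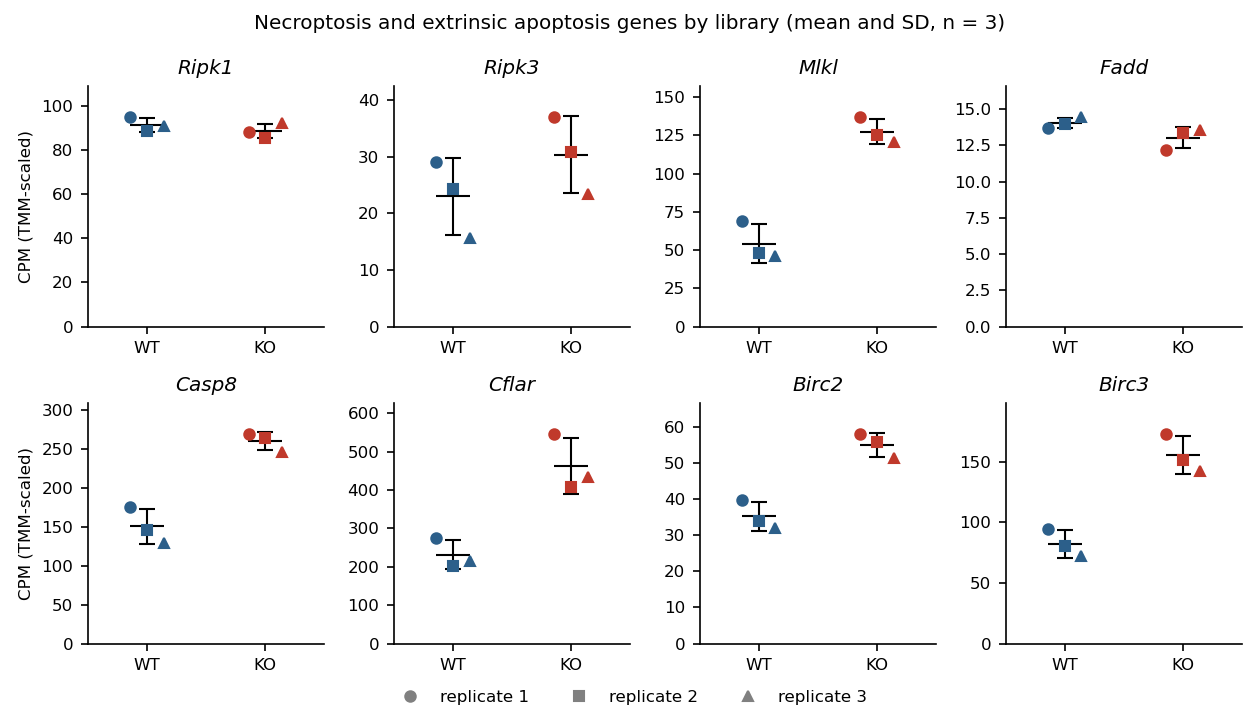
TMM-scaled CPM (y axis, from 0) of each of the 8 genes in the 3 WT (blue) and 3 KO (red) libraries, with marker shape for the replicate number and bars for mean and SD. The KO libraries lie above all WT libraries for Mlkl, Casp8, Cflar, Birc2 and Birc3, below them for Fadd, and overlap them for Ripk1 and Ripk3.

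**Figure D2:**
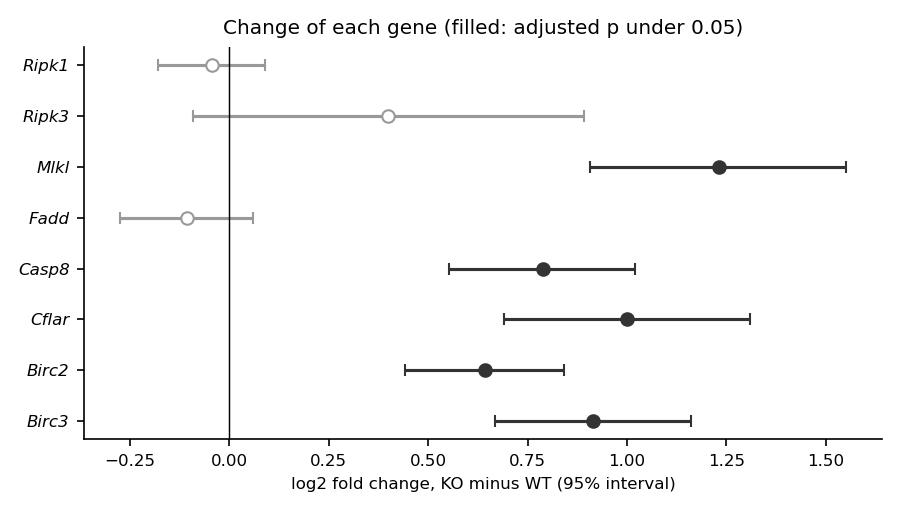
Fitted log2 fold change, KO minus WT, of each gene on the x axis with its 95% interval. Filled points passed an adjusted p of 0.05, from 0.64 for Birc2 to 1.23 for Mlkl, and the intervals of the open points for Ripk1, Ripk3 and Fadd include 0.

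To show what lies in front of the genes the results turn on, the bases before the annotated start were taken from RefSeq (GRCm38.p6), read in the direction of the gene. The stretches for Mlkl (chr8:111338206-111338455, reverse strand), Cflar (chr1:58711241-58711490, forward) and Casp8 (chr1:58802252-58802501, forward) are of genes that rose and touch no annotated exon. The Casp8 stretch lies in front of its shorter transcript and within an intron of longer ones. The Ripk1 stretch (chr13:34002795-34002873, forward) is of a gene that was not called, and is the exon-free end of its second promoter, with the STAT-type match TTCCCGGAA in capitals.
Mlkl: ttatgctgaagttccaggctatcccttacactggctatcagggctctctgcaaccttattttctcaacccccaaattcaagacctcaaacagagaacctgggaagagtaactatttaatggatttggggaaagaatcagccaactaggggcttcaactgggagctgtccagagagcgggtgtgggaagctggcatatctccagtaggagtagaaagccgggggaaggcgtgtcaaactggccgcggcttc
Cflar: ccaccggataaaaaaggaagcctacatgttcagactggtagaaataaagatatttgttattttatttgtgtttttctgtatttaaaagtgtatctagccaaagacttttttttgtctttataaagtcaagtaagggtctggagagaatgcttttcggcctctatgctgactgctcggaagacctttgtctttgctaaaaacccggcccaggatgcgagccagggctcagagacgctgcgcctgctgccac
Casp8: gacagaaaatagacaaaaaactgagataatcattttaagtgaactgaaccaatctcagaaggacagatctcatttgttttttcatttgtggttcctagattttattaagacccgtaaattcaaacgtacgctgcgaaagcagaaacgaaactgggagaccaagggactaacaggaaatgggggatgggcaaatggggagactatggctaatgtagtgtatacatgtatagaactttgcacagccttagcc
Ripk1: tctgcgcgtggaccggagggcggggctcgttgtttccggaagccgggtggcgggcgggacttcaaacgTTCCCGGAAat

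In the 250 bases before each RefSeq start used, all 10 promoter entries of the 8 genes were searched on both strands for 3 patterns of letters. The Casp8 entry is that of its shorter transcript, so the bases before its longer ones were not searched. GAAANNGAA, of the type bound by IRF proteins, occurs in 7.13% of 32851 promoters of the mouse table, and in none of the 10. TTCNNNGAA, of the STAT type, occurs in 7.02% of them and was found in the second Ripk1 promoter alone, from 108 to 100 and from 11 to 3 bases before the start. GGNNTTTCC, of the NF-kB type, occurs in 4.93% and in none of the 10. Some TTCNNNGAA and GAAANNGAA matches can overlap by their shared GAA or TTC. The absence of these letters from such short windows says nothing of where the factors bind.

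Ripk1, the kinase that the death receptor complex and the necrosome share, lies on chr13:34002363-34037147 (forward strand). Its level was 88.2, 85.5 and 91.9 CPM in KO replicates 1, 2 and 3 and 94.7, 88.5 and 90.8 CPM in the WT replicates. The groups overlapped, and the means were 88.6 ± 3.22 and 91.3 ± 3.11 (SD, n = 3 each). The log2 fold change was -0.04 (SE 0.0598, 95% interval -0.18 to 0.09, edgeR adjusted p = 0.597). This interval was the narrowest of the 8. Ripk1 shares 511 bp, 6.12% of its exon bases, with the pseudogene Gm17084 on the same strand, which had 0 counts. That count does not show how reads of the shared bases were assigned, or whether they were counted. The same holds for the low counts of genes named below that share sequence with 1 of the 8 genes. The first exons of Ripk1 share 241 bp, 2.89% of its exon bases, with Serpinb6a on the opposite strand. Serpinb6a, a serpin named after its values were seen, had 12129 to 24111 counts and fell (log2 fold change -0.43, edgeR adjusted p = 0.00284). The libraries were made with a directional kit, but whether strand was used in counting is not given. How reads of the overlap with Serpinb6a were assigned, or whether they were counted, is therefore not known. With library totals in place of TMM factors Ripk1 was called lower, at -0.26 (edgeR adjusted p = 0.00525), a setting in which the median of all genes was itself at -0.24.

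Ripk3, the kinase that activates MLKL, lies on chr14:55784995-55788865 (reverse strand). Its level was 37.0, 30.8 and 23.4 CPM in the KO replicates and 29.1, 24.3 and 15.6 CPM in the WT replicates. The groups overlapped, replicate 3 was the lowest and replicate 1 the highest in both genotypes, and each KO library was above the WT library of the same number. The means were 30.4 ± 6.78 and 23.0 ± 6.82 (SD, n = 3 each), and the log2 fold change was 0.40 (SE 0.218, 95% interval -0.09 to 0.89, edgeR adjusted p = 0.184). What the replicate numbers share between genotypes is not given. With them as a block, Ripk3 was called higher, at 0.42 (edgeR adjusted p = 0.000142). It was called too without a filter on low counts (0.39, edgeR adjusted p = 0.00484) and without WT replicate 1 (0.61, edgeR adjusted p = 0.0464). The unfiltered fit also lowered the edgeR adjusted p of every gene called higher, of Mlkl from 0.00028 to 1.16e-18, with little change in fold. For Ripk1 and Fadd the adjusted p rose. Ripk3 was at 0.19 without WT replicate 3 and at 0.19 with library totals, and was not called in either. Relative to its mean, Ripk3 had the widest spread of the 8 genes in both genotypes.

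Mlkl, whose product opens the membrane once phosphorylated by RIPK3, lies on chr8:111311797-111338177 (reverse strand), and had the largest change of the 8. Counts were 5805, 4128 and 5041 in the KO replicates and 3438, 2081 and 1921 in the WT replicates. These correspond to 136.8, 125.0 and 120.8 CPM in KO and 69.2, 47.9 and 45.8 CPM in WT. Every KO library was above every WT library, and WT replicate 1 was the highest of the WT libraries. The means were 127.6 ± 8.31 and 54.3 ± 12.9 (SD, n = 3 each), a log2 fold change of 1.23 (SE 0.143, 95% interval 0.91 to 1.55, edgeR adjusted p = 0.00028). Of all genes tested, 94.9% had a smaller absolute change. No 50-base stretch of its transcripts recurs in another annotated gene.

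Fadd, the adaptor that joins receptors or RIPK1 to caspase-8, lies on chr7:144577318-144582463 (reverse strand) and was the lowest of the 8 in counts. It had 518, 441 and 565 counts in the KO replicates and 680, 609 and 605 in the WT replicates. On the CPM scale these were 12.2, 13.4 and 13.5 in KO and 13.7, 14 and 14.4 in WT. All KO libraries lay below the WT libraries, though KO replicate 3 and WT replicate 1 were close. The means were 13.0 ± 0.721 and 14.04 ± 0.373 (SD, n = 3 each), and the log2 fold change was -0.11 (SE 0.0737, 95% interval -0.27 to 0.06, edgeR adjusted p = 0.287). With library totals Fadd was called lower, at -0.32 (edgeR adjusted p = 0.0107), against a median of -0.24 over all genes. Its exons share 239 bp, 6.12%, with Faddos on the opposite strand, which had at most 1 count.

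Casp8, the initiator caspase that starts extrinsic apoptosis and restrains necroptosis, lies on chr1:58795374-58847503 (forward strand). Its level was 268.4, 264.1 and 246.4 CPM in the KO replicates and 175.1, 146.4 and 129.6 CPM in the WT replicates. The groups were apart, with the lowest KO library above the highest WT library. The means were 259.6 ± 11.6 and 150.4 ± 23.0 (SD, n = 3 each), a log2 fold change of 0.79 (SE 0.105, 95% interval 0.55 to 1.02, edgeR adjusted p = 0.000498). Of its 50-base stretches, 4.37% recur in the pseudogene Gm20257, which had 23 to 57 counts.

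Cflar, which encodes the catalytically inactive homolog of caspase-8, lies next to it on chr1:58711508-58758884 (forward strand), with a gap of 36489 bp and no other coding gene between. Its level was 544.8, 408.1 and 434.4 CPM in the KO replicates and 274.6, 203.2 and 215.9 CPM in the WT replicates. The lowest KO library was above the highest WT library, and replicate 1 was the highest in both genotypes. The means were 462.4 ± 72.5 and 231.2 ± 38.1 (SD, n = 3 each), a log2 fold change of 1.0 (SE 0.137, 95% interval 0.69 to 1.31, edgeR adjusted p = 0.000578). Of its 50-base stretches, 7.04% recur elsewhere, mainly in the pseudogene Gm9845, which had 4 to 16 counts. Gene counts do not separate the long and short forms of cFLIP, which differ in their effect on caspase-8.

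Birc2 (chr9:7818227-7837064) and Birc3 (chr9:7848699-7873186) are paralogs on the reverse strand, 11634 bp apart with no coding gene between, and both encode ligases that ubiquitinate RIPK1. Birc2 stood at 57.8, 55.6 and 51.3 CPM in the KO replicates and at 39.7, 33.9 and 31.9 CPM in the WT replicates. Birc3 stood at 172.6, 151.9 and 142.5 CPM in KO and at 94.97, 80.5 and 72.1 CPM in WT. For both genes all KO libraries lay above all WT libraries, and replicate 1 was the highest and replicate 3 the lowest in each genotype. The mean of Birc2 was 54.9 ± 3.33 in KO and 35.2 ± 4.08 in WT (SD, n = 3 each), a log2 fold change of 0.64 (SE 0.0884, 95% interval 0.44 to 0.84, edgeR adjusted p = 0.000599). The mean of Birc3 was 155.7 ± 15.4 in KO and 82.5 ± 11.6 in WT (SD, n = 3 each), a log2 fold change of 0.92 (SE 0.109, 95% interval 0.67 to 1.16, edgeR adjusted p = 0.00031). The paralogs share 65 of the 4579 stretches of 50 bases in Birc2, and 7.38% of the stretches of Birc3 recur elsewhere, mainly in the pseudogene Gm7019, which had at most 5 counts.

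Differences within replicate numbers varied less than levels for Cflar, at 0.99, 1.01 and 1.01 on the log2 scale for numbers 1, 2 and 3. For Mlkl they were 0.98, 1.39 and 1.40, the smallest for number 1, where the WT library was the highest. Casp8 also had its smallest difference, 0.62, for number 1, and its largest was 0.93. Taking same-numbered libraries as pairs is an assumption, since what the numbers share is not given.

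**Figure D3:**
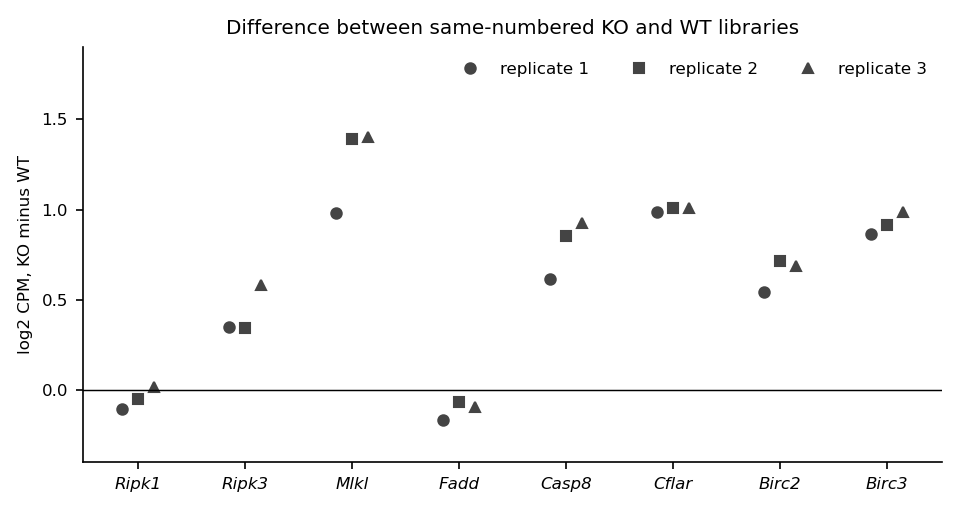
Log2 CPM of each KO library minus the WT library of the same number (y axis) for the 8 genes, with marker shape for the number. Differences are positive for all 3 numbers in Ripk3, Mlkl, Casp8, Cflar, Birc2 and Birc3, negative for all 3 in Fadd, and of both signs in Ripk1.

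Levels of different genes were compared as CPM per kilobase of exon, on which the order was Casp8, Mlkl, Cflar and Birc3 at the top in both genotypes and Fadd at the bottom. In KO libraries the means ran from 89.8 ± 4.02 for Casp8, 55.4 ± 3.61 for Mlkl, 36.5 ± 5.73 for Cflar and 31.1 ± 3.08 for Birc3 down to 3.3 ± 0.18 for Fadd (SD, n = 3). In WT libraries they ran from 52.0 ± 7.96 for Casp8, 23.6 ± 5.63 for Mlkl, 18.3 ± 3.01 for Cflar and 16.5 ± 2.31 for Birc3 down to 3.598 ± 0.0956 for Fadd. Neighbours whose libraries overlapped were Cflar and Birc3, and Ripk3 and Birc2, in KO. In WT these were Mlkl and Cflar, Cflar and Birc3, Ripk1 and Ripk3, and Ripk3 and Birc2. By the means, Ripk1 was the fifth in WT (10.9 ± 0.372) and the seventh in KO (10.6 ± 0.386), below Ripk3 (13.3 ± 2.96) and Birc2 (12.0 ± 0.727). Ripk1 and Ripk3, not neighbours in KO, overlapped there too (10.25 to 11.02 and 10.23 to 16.14). Their order therefore differed between libraries in both genotypes. The length of Cflar was the union of 13 transcripts (12669 bp), which understates its level if the cells use shorter ones. The same caution holds for other genes with several transcripts, such as Ripk1 (8344 bp, 5 transcripts). Before scaling by length, Ripk1 in KO was above Ripk3 and Birc2, at 88.6 against 30.4 and 54.9 CPM.

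**Figure D4:**
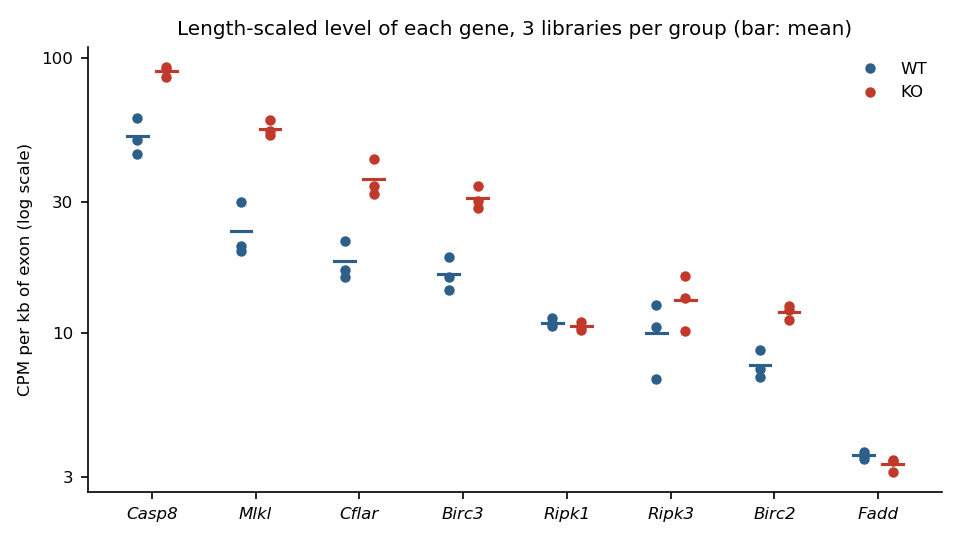
CPM per kilobase of exon on a log scale (y axis) for the 8 genes, with points for the 3 WT (blue) and 3 KO (red) libraries and bars for their means. Casp8 is the highest and Fadd the lowest in both genotypes, and Mlkl in KO (52.5 to 59.4) reaches the level of Casp8 in WT (44.8 to 60.5).

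Ratios of partner genes within a library do not depend on the scaling of libraries. The ratio of Cflar to Casp8 counts was 2.03, 1.54 and 1.76 in the KO replicates and 1.57, 1.39 and 1.67 in the WT replicates. The groups overlapped, and the difference in mean log2 ratio was 0.20 (exact permutation test, two-sided, p = 0.3), or 0.10 without KO replicate 1 and 0.30 without KO replicate 2. The ratio of Birc3 to Birc2 was 2.99, 2.73 and 2.78 in KO and 2.39, 2.37 and 2.26 in WT. These groups did not overlap, with a difference of 0.27 (exact permutation test, two-sided, p = 0.1, the smallest that 3 against 3 libraries can give). The ratio of Ripk3 to Ripk1 was 0.419, 0.360 and 0.255 in KO and 0.307, 0.274 and 0.172 in WT, and overlapped, with a difference of 0.47 (exact permutation test, two-sided, p = 0.3). That difference was 0.22 without WT replicate 3 and 0.67 without KO replicate 3. Adjusted over the 3 ratios, each exact p was 0.3. Within replicate numbers 1, 2 and 3, KO was above WT for all 3 ratios, by 0.37, 0.15 and 0.08 on the log2 scale for Cflar to Casp8, by 0.32, 0.20 and 0.30 for Birc3 to Birc2, and by 0.45, 0.39 and 0.57 for Ripk3 to Ripk1. An exact sign-flip permutation test over these pairs gave p = 0.25 for each, the smallest that 3 pairs allow. Whether the numbers pair libraries of the 2 genotypes is not given.

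Upstream of these genes, death ligands and receptors had 3 of 7 tested genes higher and 1 lower (Tnfrsf21), and their median log2 fold change was 0.454. Counts of this and the following lists are read against 18.1% of all genes tested higher, 19.0% lower and a median of -0.0241. Fasl was too low to test. Tnfsf10, which encodes the death ligand TRAIL, stood at 508.0 ± 56.8 CPM in KO and 151.6 ± 62.9 in WT (SD, n = 3 each), a log2 fold change of 1.74 (edgeR adjusted p = 0.00067). Tnf rose from 75.2 ± 9.70 to 228.8 ± 26.4 CPM, a log2 fold change of 1.61 (edgeR adjusted p = 5.4e-05). Its receptor gene Tnfrsf1a rose less, by 0.58 on the log2 scale (edgeR adjusted p = 0.000452). The genes tested but not called were also receptors, and were named after their values were seen. Tnfrsf1b, the other TNF receptor gene, was at 0.05 (edgeR adjusted p = 0.605) and Fas at 0.45 (edgeR adjusted p = 0.0621). Tnfrsf10b, a TRAIL receptor gene with 16 to 42 counts per library, was at -0.67 (edgeR adjusted p = 0.0536). Tnfrsf21, named after its values were seen, encodes death receptor 6 and was at -0.28 (edgeR adjusted p = 0.00533).

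Of 21 genes of the TNF receptor complex and its ubiquitin and kinase machinery, 11 were higher and 0 lower, and the median was 0.296. Over all genes tested 18.1% were higher and 19.0% lower. With the replicate block the counts were 16 and 2, and the lower genes were Ikbkg (NEMO) and Otulin, a deubiquitinase, both named after their values were seen. The block called more genes in general, 6958 of 13680 against 5074 without it. The genes with the largest change were Tnfaip3, the ubiquitin-editing enzyme A20, at 1.31 (edgeR adjusted p = 6.16e-05), Tank, an adaptor of the kinase TBK1, at 1.10 (edgeR adjusted p = 0.000343), and Ikbke, a TBK1-related kinase, at 0.91 (edgeR adjusted p = 5.51e-05).

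Of 18 partners of the RHIM domain and regulators of necroptosis, 8 were higher and 0 lower, and the median was 0.144. The shares over all genes tested were 18.1% and 19.0%. Among them, Zbp1, a sensor of Z-form nucleic acid that binds RIPK3, had 23480, 17236 and 20367 counts in the KO replicates and 11211, 7394 and 4739 in the WT replicates. The groups were apart, at 521.2 ± 32.7 and 169.6 ± 56.3 CPM (SD, n = 3 each), a log2 fold change of 1.62 (edgeR adjusted p = 0.000402). Tlr3, a receptor for double-stranded RNA, was at 1.65 (edgeR adjusted p = 0.000315) and Eif2ak2, the kinase PKR, at 0.79 (edgeR adjusted p = 0.00166). Ticam1, the TRIF adaptor that carries a RHIM domain, was at -0.08 (edgeR adjusted p = 0.449). With the replicate block 9 were higher and 1 lower, the chaperone gene Hsp90aa1, named after its values were seen. That setting called 6958 of 13680 genes, against 5074 without the block.

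Downstream, the executioner and apoptosome list moved in both directions, with 6 of 13 higher, 4 lower and a median log2 fold change of 0.126. All genes tested also moved in both directions, with 18.1% higher and 19.0% lower. Casp6, which encodes an executioner caspase, was lower at -0.21 (edgeR adjusted p = 0.0318). Apaf1, the scaffold of the apoptosome, was at 0.84 (edgeR adjusted p = 0.0015) and Cycs, cytochrome c, at 0.80 (edgeR adjusted p = 0.000556). Besides Casp6, the lower genes were Casp9, Dffa and Parp1, named after their values were seen, at -0.19, -0.29 and -0.31. The count of these lower genes was 1 without KO replicate 1, KO replicate 2, WT replicate 2 or WT replicate 3, 2 without KO replicate 3 or without a filter, and 1 in DESeq2. The count of higher genes was 4 without KO replicate 1, KO replicate 2, WT replicate 2 or WT replicate 3. It was also 4 with upper-quartile scaling and with library totals.

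Among BCL2 family genes, which set the permeability of mitochondria, 7 of 16 tested were higher and 2 lower, and the median was 0.230. Over all genes tested the shares were 18.1% higher and 19.0% lower. Bik and Hrk were too low to test. The anti-apoptotic Bcl2a1d was at 1.13 (edgeR adjusted p = 6.16e-05) and Bcl2a1a at 0.98 (edgeR adjusted p = 0.0129), though these near-identical copies may share reads. Bcl2a1a was low, with 16 to 47 counts per library. Another copy, Bcl2a1b, named after its values were seen, was at 0.30 and not called (edgeR adjusted p = 0.259), and its groups overlapped. Genes that promote apoptosis were also among the higher ones, with Bid at 0.67 (edgeR adjusted p = 0.000116), Bak1 at 0.47 (edgeR adjusted p = 0.000316) and Bbc3 at 0.24 (edgeR adjusted p = 0.0353), all named after their values were seen. The lower genes were Bok, which is grouped with the pore-forming members, at -1.26 (edgeR adjusted p = 0.0282) and no more than 0.452 ± 0.00857 CPM (SD, n = 3, in WT), and the pro-apoptotic Bmf, named after its values were seen, at -0.86 (edgeR adjusted p = 0.000453). The count of lower genes was 1 without KO replicate 2, KO replicate 3, WT replicate 2 or WT replicate 3, with at least 10 counts in every library, and in DESeq2.

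Of 14 genes of the inflammasomes and pyroptosis, the lytic death that caspase-1 and gasdermin D carry out, 11 were higher and 0 lower. The median was 0.836, and over all genes tested 18.1% were higher and 19.0% lower. Nlrp3 was at 1.59 (edgeR adjusted p = 5.4e-05), Il1b at 1.51 (edgeR adjusted p = 0.00149) and Mefv, which encodes pyrin, at 1.10 (edgeR adjusted p = 0.000778). With the replicate block 13 were higher and 1 lower, the gasdermin gene Gsdme, named after its values were seen. That setting called 6958 of 13680 genes, against 5074 without the block.

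**Figure D5:**
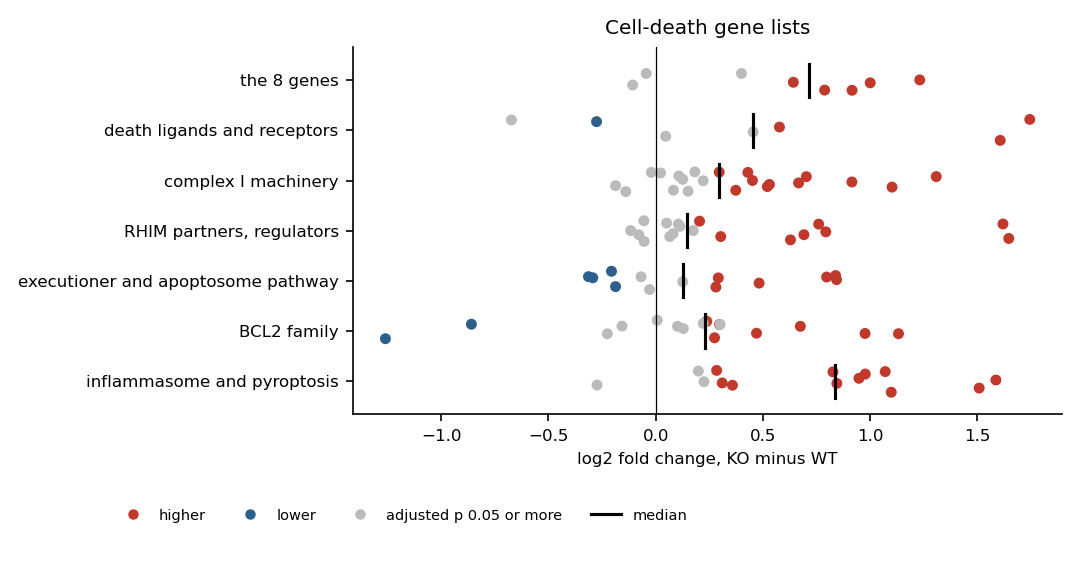
Log2 fold change, KO minus WT (x axis), of every tested gene of the 8 and of 6 related lists, with red for higher, blue for lower and gray for an adjusted p of 0.05 or more, and a bar for each median. Medians run from 0.126 (executioner and apoptosome) to 0.836 (inflammasome and pyroptosis), with 0.715 for the 8 genes.

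The tested genes whose profile over the 6 libraries was most like that of Mlkl were Mov10, an RNA helicase, Phf11d and Nsmaf, an adaptor of TNF receptor 1. Their root mean square differences from Mlkl were 0.0396, 0.0443 and 0.0451 on the log2 scale after each profile was centered. Those most like Cflar were Gm12216 (0.0542), which was low at 1.09 CPM in WT, Helz2 (0.0559) and the integrin gene Itga4 (0.0592). Among the 8 genes, Cflar was 0.111 from Birc3, 0.168 from Mlkl and 0.171 from Casp8, against 0.548 from Ripk1 and 0.599 from Fadd. These distances are over libraries that share the genotype split, and are descriptions.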

How the data were processed

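RNA-Seq was performed on poly(A) RNA of 3 PP2Ac KO and 3 WT BMDM libraries. The authors deposited 1 table of whole-number read counts per gene, without normalization. The submitters' processing notes name fastp 0.20.0, kallisto 0.46.1, STAR 2.7.1a, HTSeq 0.11.2, edgeR 3.34.0 and limma 3.48.3 and the builds mm10 and GRCm38, without roles, and the strand setting is not given in the sources used here.

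Counts were tested in R 4.3.3 with edgeR 4.0.16 (filterByExpr, minimum count 10 and total 15, TMM, glmQLFit and glmQLFTest, genotype only), with Benjamini-Hochberg adjustment over 13680 genes. CPM use TMM factors (0.9098 to 0.9375 in KO, 1.049 to 1.097 in WT). Intervals are 95%. The script was tested on simulated data. Deviations of same-numbered libraries correlated at 0.289, 0.148 and 0.337, and the numbers in the labels were taken as pairs for a replicate block. What these numbers share between genotypes is not given. The correlations come from the same counts, so the pairs may be arbitrary, and results that use them depend on this choice. Alternatives were scaling by RLE or the upper quartile, no filter, 10 counts in every library, DESeq2 1.42.0, limma-voom (limma 3.58.1), each library left out and, chosen after seeing the data, library totals without a scaling factor.

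GENCODE M21 gave coordinates and exon lengths (98.4% of symbols matched), and RefSeq promoters matched all 8 genes. Named were the 8 genes, Ppp2ca, the 3 most changed called genes of each list, Casp6, Zbp1, Ticam1, Tnf, Tnfrsf1a and the 3 genes closest in profile to each of the 2 most changed members, and some genes under this rule are not reported here. The genes and lists were chosen with earlier results of these data known. B cell markers summed to 0.684 to 1.34 CPM in KO and 0.501 to 0.584 in WT, dendritic cell markers to 1.03 to 1.82 and 0.763 to 1.11, neutrophil markers to 0.887 to 0.939 and 0.664 to 0.906, and T and NK cell markers to at most 0.212 and 0.092.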

Additional observations from a re-analysis of the deposited data

How the results depend on the processing

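Mlkl, Casp8, Cflar, Birc2 and Birc3 stayed called higher under all 7 planned settings other than leaving out a library, in each of the 6 fits without a library and with library totals. Leaving out a library moved the log2 fold change of Mlkl from 1.12 to 1.45, of Casp8 from 0.69 to 0.91, of Cflar from 0.86 to 1.14, of Birc2 from 0.58 to 0.74 and of Birc3 from 0.83 to 1.03. Ripk1 (-0.07 to -0.02) and Fadd (-0.13 to -0.07) were not called in any of the 6 fits without a library. Both were called lower with library totals. Ripk3 ran from 0.19 to 0.61 and was called without WT replicate 1, without a filter and with the replicate block. Leaving out a library gave 5 to 6 of the 8 genes higher and 0 lower, 1 to 3 past a log2 fold change of 1, and 1974 to 2721 genes higher and 1873 to 2720 lower over all genes.

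The count past a log2 fold change of 1 was 2 under RLE scaling, with the replicate block, in DESeq2 and in limma-voom, since Cflar lies at the threshold. The replicate block gave 6 of the 8 genes higher and 0 lower (Ripk3 added), and 3343 genes higher and 3615 lower over all genes. It changed no other call among the 8. Higher counts with the block were 9 for the BCL2 family and 4 for death ligands and receptors, against 7 and 3. With library totals and no scaling factor, 2 of the 8 were lower (Ripk1 at -0.26 and Fadd at -0.32), and 1503 of all genes were higher and 6125 lower, so that 19.7% of called genes were higher against 48.7% with TMM and 38.4% with upper-quartile scaling. The median of all genes moved from -0.0241 to -0.24, and relative to it Ripk1 and Fadd were near 0. In that setting the BCL2 family had 4 genes higher and 4 lower, and lower counts of the other lists were 2 for death ligands and receptors, 3 for complex I, 4 for RHIM partners and regulators and 1 for inflammasomes. Upper-quartile scaling gave 2, 2, 1 and 1 for these lists, and of the 8 genes 5 were higher and 0 lower.

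Counts of mRNA do not show protein, cleavage or phosphorylation, by which these proteins are switched. With 3 libraries per group an exact test of 1 value cannot give a p under 0.1. The lowest of the 8, Fadd, had 441 to 680 counts per library, so that counting error is part of the spread between its libraries.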
